A study of Drosophila melanogaster with 2 samples.

Results

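The annotated microRNA precursor genes of Drosophila melanogaster, and the genes that host them, were examined for chromatin peaks of the CG31224-eGFP fusion protein. The precursors are the Ensembl entries whose symbol starts with mir-, a rule that takes in let-7 (mir-let7) and bantam (mir-ban). The annotation holds 262 of them, of which 260 lie on the chromosomes analysed and 2 on a ribosomal DNA scaffold that was left out, against 17796 annotated genes in all. The annotation also lists 485 mature microRNAs as entries of their own, and these were not counted. An entry was called bound at its own 5' end when a peak summit lay within 500 bp of that end, and otherwise bound through its host when a summit lay within 500 bp of a transcription start site (TSS) of a gene on the same strand that contains it. Such hosts numbered 165, and together they contain 182 of the 260 entries.

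The peaks come from anti-GFP chromatin immunoprecipitation followed by sequencing (ChIP-seq). The material was whole embryos of 0 to 24 h from the strain CG31224-GFP, transgenic flies that make CG31224 fused to eGFP, and the labels state neither the promoter that drives the transgene nor whether the untagged gene is still present. There was 1 group of 2 biological replicates, with sonicated chromatin of 200 to 800 bp, and no second condition, so shares of bound entries are given with 95% Wilson intervals that cover counting only and are set beside all annotated genes, with no test. The main list was called on both replicates together and has 3810 peaks on the chromosomes analysed, while replicate 1 on its own gave 2402 and replicate 2 gave 2602. Each peak carries a signal value, which is the authors' own score for that peak; its scale is not stated in the sources used here, its median in the main list was 89.1 and its highest value 4550, and read depth is unknown. Because embryos of all stages and tissues were pooled, a peak does not say in which cells or at what age the DNA was bound. The promoter of CG31224 itself held a peak with a signal value of 278 in the main list, 154 in replicate 1 and 130 in replicate 2.

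MicroRNAs are short RNAs that guide Argonaute proteins to messenger RNAs, mostly through pairing of the seed near the 5' end of the microRNA, and so lower the output of those messages. They are cut from hairpins in long primary transcripts, first by Drosha with Pasha in the nucleus and then by Dicer-1 with Loquacious in the cytoplasm; mirtrons skip the first cut because splicing frees the hairpin. The annotated 5' end of a precursor is therefore the end of a hairpin and usually not a TSS: an intronic microRNA is commonly transcribed from its host's promoter, and an intergenic one from a promoter that can lie kilobases away.

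The mature sequences of the bound precursors that results below turn on are shown to let a reader see which of them share a seed, with the seed, bases 2 to 8, in capitals; sequences are those of RefSeq (Release 6 plus ISO1 MT, the assembly of dm6), and all 260 entries were matched there. The 3 mir-2 precursors in an intron of spi and mir-2b-1 in Btk carry one seed on their 3' arm, mir-92a and mir-92b another, and mir-279 and mir-996 yet another.
mir-2a-1 3p: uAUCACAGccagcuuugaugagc
mir-2b-1 3p: uAUCACAGccagcuuugaggagc
mir-2b-2 3p: uAUCACAGccagcuuugaggagc
mir-92a 3p: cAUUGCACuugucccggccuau
mir-92b 3p: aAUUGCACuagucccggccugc
mir-279 3p: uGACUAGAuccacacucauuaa
mir-996 3p: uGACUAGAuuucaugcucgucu
mir-ban 3p: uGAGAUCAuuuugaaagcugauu
mir-275 3p: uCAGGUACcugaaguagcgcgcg
mir-4962 5p: uUUCCCUCucucuguuuacauuga
mir-4962 3p: gACGAUGUagagagugagggaga
The mature 3' arm of mir-2a-2 has the same letters as that of mir-2a-1.

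The DNA under 6 summits that the results turn on is shown as 101 bases centred on the summit, from the same RefSeq genome: the highest peak at a precursor (inside the mir-4962 hairpin, in Tlk), the highest at a host TSS (lncRNA:CR31044, host of mir-279 and mir-996), those of spi, bantam and its host RNA, and that of mir-275. Capitals mark the letters of the fixed motifs, of which these windows hold CACGTG and GAGAGAG, both at mir-4962.
mir-4962 summit in Tlk, chrX:3777446-3777546, plus strand: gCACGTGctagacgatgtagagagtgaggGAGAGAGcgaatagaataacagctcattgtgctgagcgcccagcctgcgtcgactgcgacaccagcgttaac
lncRNA:CR31044 TSS summit, chr3R:29214396-29214496, plus strand: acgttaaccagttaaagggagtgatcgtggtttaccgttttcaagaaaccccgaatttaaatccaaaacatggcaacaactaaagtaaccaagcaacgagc
spi TSS summit, chr2L:19575722-19575822, plus strand: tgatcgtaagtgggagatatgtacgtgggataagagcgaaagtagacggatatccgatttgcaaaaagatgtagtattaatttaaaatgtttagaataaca
mir-ban summit, chr3L:642606-642706, plus strand: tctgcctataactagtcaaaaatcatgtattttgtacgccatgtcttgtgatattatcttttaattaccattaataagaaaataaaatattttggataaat
lncRNA:CR43334 TSS summit, chr3L:627889-627989, plus strand: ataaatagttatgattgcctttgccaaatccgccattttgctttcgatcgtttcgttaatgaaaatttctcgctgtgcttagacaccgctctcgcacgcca
mir-275 summit, chr2L:7425314-7425414, plus strand: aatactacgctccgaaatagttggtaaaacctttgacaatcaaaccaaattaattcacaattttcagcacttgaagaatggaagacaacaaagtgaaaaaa
The 3' mature arm of mir-4962 lies inside its summit window, while no mature arm of mir-275 or mir-ban does.

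Few precursors had a peak at their own 5' end. In the main list 6 of 260 entries did (2.31%, interval 1.06 to 4.94%), and replicate 1 on its own gave 4 and replicate 2 gave 5. Of all annotated genes, 11.6% had a summit within 500 bp of their own 5' end. For scale, 2.58% of all chromosome bases and 2.92% of intron bases lay within 500 bp of a main-list summit.

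More precursors were reached through a host. A further 33 entries had no summit at their own end but had one at a host TSS (12.7%, 9.18 to 17.3%), which brings the entries bound in either way to 39 (15%, 11.2 to 19.8%). The share of all annotated genes with a summit within 500 bp of any TSS was 13.2% in the main list, inside that interval. Replicate 1 alone gave 34 entries bound in either way (13.1%, 9.51 to 17.7%), against 8.93% of all genes, which lies below that interval. Replicate 2 alone gave 35 (13.5%, 9.84 to 18.1%), against 10.4% of all genes, which lies inside it. The entry share joins own ends and any host TSS, so it is not the same measure as the share of all genes. Of the 39 entries, 30 were called in both replicates' own lists, 28 of them by the same route, 4 in 1 replicate's list and 5 in neither.

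The highest signal at any precursor was at mir-4962, an intronic hairpin in Tlk, which encodes Tousled-like kinase, a kinase of chromatin assembly. Its peak had signal values of 3732 in the main list, where its rank was 4, 2129 in replicate 1 and 1613 in replicate 2. The summit lay 114 bp downstream of the 5' end of the 124 nt hairpin (X:3777382, plus strand) and so inside the hairpin itself. The annotated Tlk TSS 1323 bp upstream of mir-4962 held a far lower peak, with 55.8 in the main list and 31.6 in replicate 2, and it was not called in replicate 1. Tlk had 15 main-list summits within its body in all.

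At mir-4978 the signal value was 687 in the main list, 418 in replicate 1 and 260 in replicate 2, with the summit 7 bp downstream of its 5' end. This hairpin (2R:14006006, minus strand) lies antisense inside mam, which encodes the Notch coactivator Mastermind, and has no host on its own strand. At mir-9377, in an intron of Tis11, a zinc-finger protein of messenger RNA decay, the values in the same lists were 175, 82.3 and 90.9, with a narrow peak of 92 bp whose summit lay 461 bp downstream. No TSS of Tis11 was bound. These 3 peaks were called in both replicates, and in 2 of the 6 entries with a peak at their own end, mir-4962 and mir-4978, the summit fell within the hairpin.

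The other 3 own-end peaks were at well-studied microRNAs for which a host was bound too. At mir-275, which lies in an exon of lncRNA:CR43857, the summit 431 bp upstream had values of 140, 53.3 and 85.5 in the main, replicate 1 and replicate 2 lists, and the RNA's own TSS, 1975 bp upstream of the hairpin, had 59.1 in the main list and was called in neither replicate. At bantam, a growth-promoting and anti-apoptotic microRNA, a summit 448 bp downstream of the hairpin's start had 66.8 and was absent from both replicates' lists and from the conservative list. Its host lncRNA:CR43334 had a called TSS 13773 bp upstream with values of 104, 44.9 and 60.6 in the main, replicate 1 and replicate 2 lists. At mir-92b, which helps to maintain neural stem cells, a summit 190 bp downstream had 61 and was likewise absent from the other thresholded lists, while its host jigr1 had 193, 99.5 and 88.8. The jigr1 TSS nearest to that host peak starts no annotated transcript that spans mir-92b. Another host of mir-92b, lncRNA:CR45917, was not bound. The own-end calls of bantam and mir-92b thus rested on the pooled data; in the ranked lists, which apply no threshold, bantam had 18.4 in replicate 1 and 42.6 in replicate 2.

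**Figure D1:**
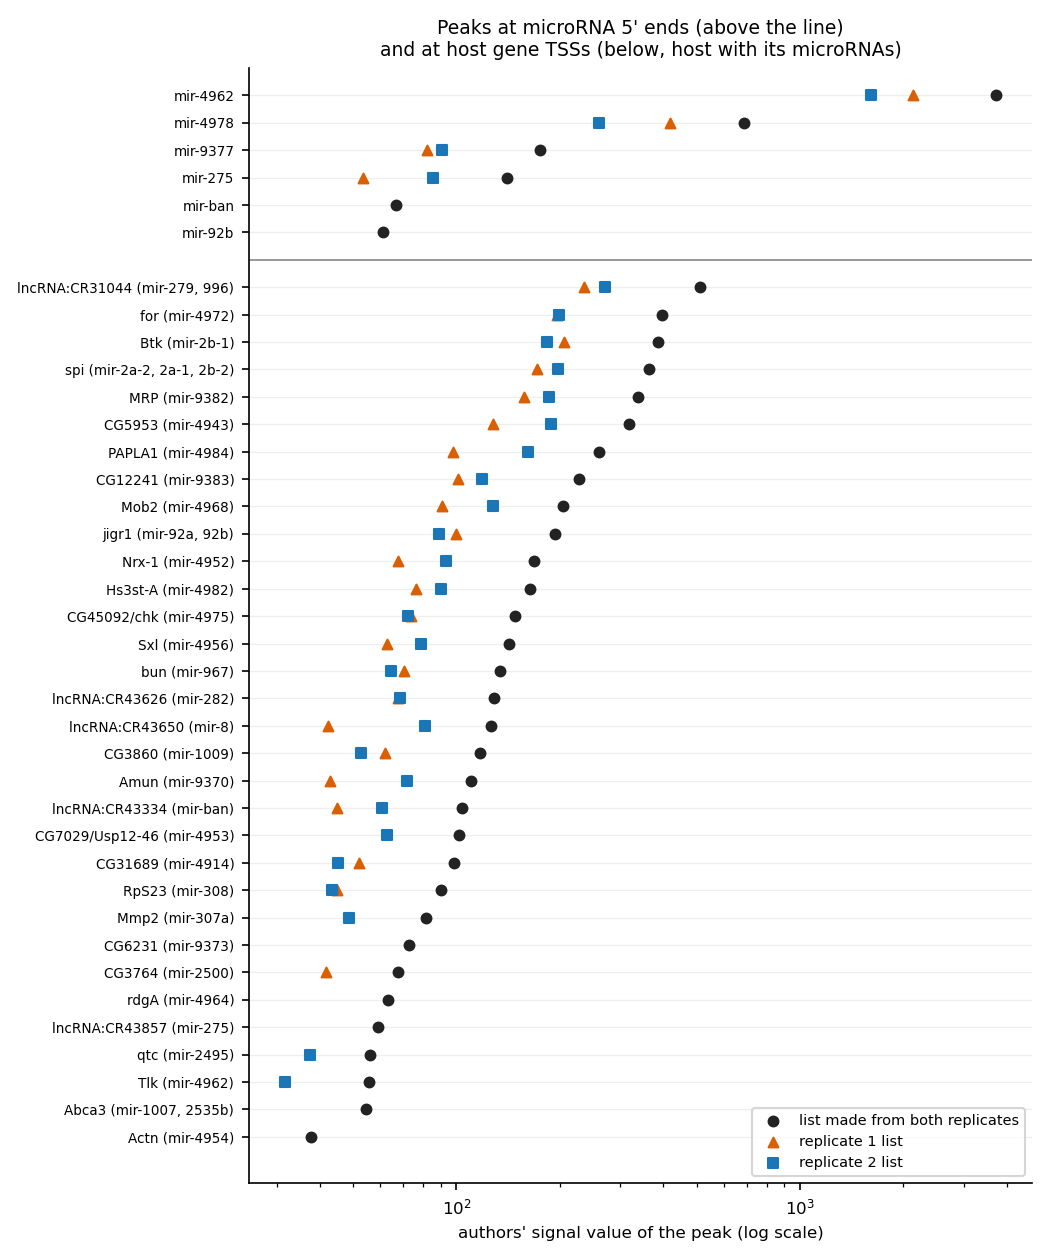
Signal value (authors' score, log scale) of the peak at each of the 6 precursor 5' ends (above the line) and of the strongest TSS peak of each bound host gene (below, with its microRNAs in parentheses; hosts that share a TSS share a row), in the main list (circles), the replicate 1 list (triangles) and the replicate 2 list (squares). A missing triangle or square means that no peak with a summit within 150 bp was in that replicate's list; mir-4962 stands at 3732 and the highest host, lncRNA:CR31044, at 513.

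The distance limit separated some neighbours narrowly. Just inside 500 bp were mir-275 (431 bp), bantam (448 bp) and mir-9377 (461 bp), and just outside was mir-92a (543 bp), which was bound through jigr1. Among hosts, qtc (465 bp) and lncRNA:CR43334 (496 bp) lay just inside. Just outside lay SREBP, host of mir-33, at 510 bp with a peak of 103, the antisense RNA CR46194, host of mir-281-1 and mir-281-2, at 543 bp with 65.3, lncRNA:CR45916, host of mir-9a, at 544 bp with 139, rhea, host of mir-190, at 591 bp with 159, and lncRNA:CR45345, host of mir-375, at 592 bp with 123.

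Among microRNAs in non-coding host RNAs, the strongest TSS was that of lncRNA:CR31044, the primary transcript of mir-279 and mir-996, which limit the formation of CO2-sensing neurons. Its peak had 513 in the main list, 235 in replicate 1 and 271 in replicate 2, with the summit 116 bp upstream of the only annotated TSS, 1023 bp before mir-279 and 2622 bp before mir-996. At lncRNA:CR43626, host of mir-282, the values were 129, 67.7 and 68.5, and at lncRNA:CR43650, host of mir-8, a member of the conserved miR-200 family, they were 126, 42.3 and 80.8. The mir-8 summit lay 162 bp upstream of a TSS that is itself 743 bp upstream of the hairpin. With lncRNA:CR43334 and lncRNA:CR43857 these made 5 bound hosts of 37 non-coding ones (13.5%, 5.91 to 28.0%), against 4.62% of 3531 other non-coding RNA genes. Among non-coding genes and pseudogenes of all kinds the share was 4.55%. When the gene's own 5' end alone was used, 3 of the 37 hosts were bound (8.11%, 2.8 to 21.3%). The share of the other non-coding RNA genes was then 4.5%, inside that interval.

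The mir-2 precursors, whose products repress pro-apoptotic genes such as reaper in flies, were bound at both protein-coding hosts that contain them. In spi, which encodes the EGF receptor ligand Spitz and has mir-2a-1, mir-2a-2 and mir-2b-2 in an intron, 4 main-list peaks lay at TSSs. The strongest had 364 in the main list, 172 in replicate 1 and 197 in replicate 2, with its summit 185 bp upstream of a TSS. The other 3 had 106, 59 and 58.6, and were called in replicate 2 but not in replicate 1. Btk, a non-receptor tyrosine kinase gene that contains mir-2b-1 in an exon, had 387, 206 and 183 in the same lists. The bound Btk TSS starts no annotated transcript that spans mir-2b-1. The precursors mir-2c, mir-13a and mir-13b-1, which carry the same seed, lie in lncRNA:CR45911, which was not bound; the nearest summit, with 49 in the main list, was 1115, 1344 and 1485 bp upstream of them.

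Seeds that 2 or more entries share were looked at where at least 1 of them was bound, so the counts by seed are a description; of all entries 15% were bound, and of all genes 13.2%. In all, 14 entries carry the mir-2 seed, and 5 were bound: the 4 named above and mir-308, an intronic microRNA of the ribosomal protein gene RpS23 (90.2, 44.9 and 43.4 in the main, replicate 1 and replicate 2 lists). The 9 unbound ones were mir-2c, mir-5, the 3 mir-6 copies, mir-11, mir-13a, mir-13b-1 and mir-13b-2. Of 6 entries with the mir-92 seed, mir-92a and mir-92b were bound and the mir-310 to mir-313 cluster was not. Of 3 with the mir-279 seed, mir-286 was unbound. Entries of one cluster can share a host or a promoter, so their calls are not separate observations. Single entries were bound in either way in 29 of 181 cases (16.0%), and entries within 10000 bp of another on their strand in 10 of 79 (12.7%), these being in 5 of 22 clusters; the 15% of all entries lies between these shares.

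Among the remaining protein-coding hosts, 6 had main-list values above 200 and were called in both replicates: foraging (for), which encodes a cGMP-dependent protein kinase (mir-4972, 396 in the main list, 196 in replicate 1 and 199 in replicate 2), the ABC transporter gene MRP (mir-9382, 338, 157 and 186), CG5953 (mir-4943, 317, 128 and 188), the phospholipase gene PAPLA1 (mir-4984, 260, 97.8 and 162), CG12241 (mir-9383, 228, 101 and 119) and Mob2 (mir-4968, 204, 90.9 and 128). The peaks of PAPLA1, MRP, CG12241 and Mob2 also lay within 500 bp of a TSS of another gene, and those of for and CG5953 did not. Their replicate values lay within a factor of 1.66 of each other, so the order of near neighbours in the main list does not separate them.

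Hosts with lower main-list values still called in both replicates were jigr1 (mir-92a), the synaptic adhesion gene Nrx-1 (mir-4952, 168), Hs3st-A, a heparan sulfate sulfotransferase gene (mir-4982, 164), chk and CG45092, which share a TSS (mir-4975, 148), the sex-determination gene Sxl (mir-4956, 142), bun (mir-967, 134), CG3860 (mir-1009, 117), Amun (mir-9370, 110), CG31689 (mir-4914, 98.1) and RpS23. In a single replicate's list were the hosts of mir-4953 (Usp12-46 and CG7029, 102), mir-307a (the metalloproteinase gene Mmp2, 81.8), mir-2500 (CG3764, 67.6) and mir-2495 (qtc, 56.1). In neither were CG6231 (mir-9373, 72.9), the diacylglycerol kinase gene rdgA (mir-4964, 63.1), Abca3 (mir-1007 and mir-2535b, 54.7) and the alpha-actinin gene Actn (mir-4954, 37.8). These 5 precursors rest on the pooled list, and Actn is also missing from the conservative list.

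Most bound hosts had a bound TSS whose transcript runs through the hairpin. For 29 of 33 entries bound through a host, a bound TSS started an annotated transcript that spans the hairpin; the exceptions were mir-4972, mir-2b-1, mir-282 and mir-92a. At mir-9370 that TSS of Amun lay 167 bp from the summit and was not the nearest one. For 31 of the 33 the strongest bound TSS lay upstream of the hairpin, from 428 bp (mir-282) to 62520 bp (mir-307a in Mmp2), with a median of 7464 bp. For mir-92a and mir-4972 it lay downstream, by 740 and 4919 bp.

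The 47 distinct peaks at precursor ends or host TSSs had a median signal of 106. Their summits lay a median of 162 bp upstream of the start they were assigned to, and 31 of 47 were upstream of it. At host TSSs the summit was upstream for 30 of 41 peaks, and at precursor ends for 1 of 6. The upstream share at the TSSs of other genes is not given here, so this is not shown to be particular to hosts. Of the 47, 27 had a matching peak in both replicates' lists, against 1787 of all 3810 main-list peaks. Of the same 47, 10 had one in neither replicate's list and 41 in the conservative list. Within 500 bp of a TSS of another gene, a second host included, lay 8 of them. Replicate 1 had the higher signal in 10 of the 27: the log2 of its value over that of replicate 2 was −0.20 ± 0.38 (median ± SD), beside −0.06 ± 0.45 over the 1787 main-list peaks found in both.

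**Figure D2:**
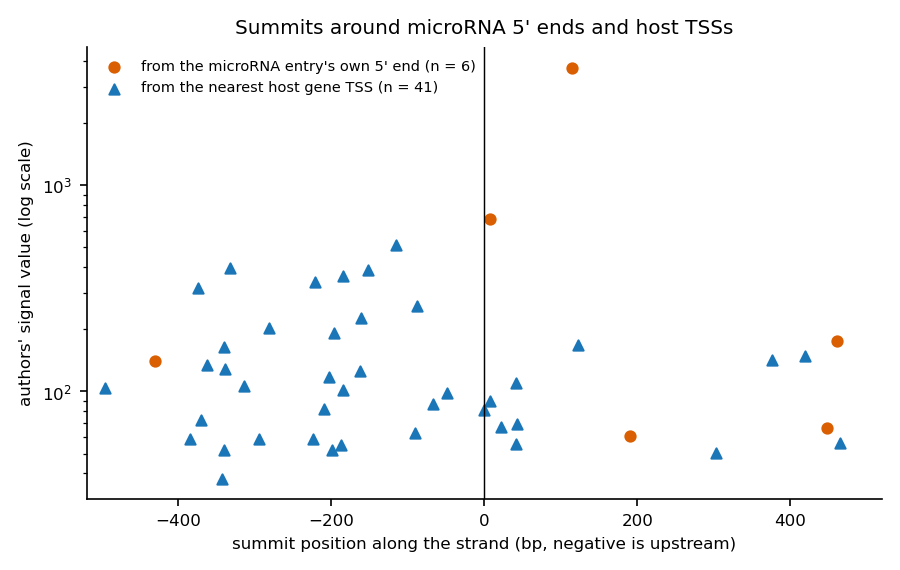
Summit position along the strand (bp, negative upstream) against the main-list signal value (log scale) for the 6 peaks at precursor 5' ends (circles) and the 41 at host TSSs (triangles). Most host summits lie upstream of the TSS, 30 of 41, while 5 of the 6 at precursor ends lie downstream. The upstream share at the TSSs of other genes is not given.

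Host genes had a bound TSS in a larger share than other genes, and the number of TSSs per gene moved with it. A bound TSS was found in 34 of 165 hosts (20.6%, 15.1 to 27.4%), against 13.3% of 17371 genes that are neither host nor precursor. In the replicates' own lists it was 15.8% against 8.97% for replicate 1 and 17.6% against 10.5% for replicate 2. Among protein-coding genes, of which 15.5% were bound, 29 of 128 hosts were bound (22.7%, 16.3 to 30.6%), against 15.5% of the others. Coding hosts are longer and have more starts: their median length was 14094 bp and median number of TSSs 2, against 2145 bp and 1 in other coding genes. When the gene's own 5' end alone was used, hosts were at 13.3% (8.97 to 19.4%) and other genes at 11.7%.

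Split by number of TSSs, coding hosts with 1 TSS were bound in 4 of 56 cases (7.14%, 2.81 to 17.0%), against 11.6% of other coding genes with 1 TSS. With 2 to 3 TSSs the shares were 25% of 52 hosts and 24.5% of other genes. With 4 or more they were 60.0% of 20 hosts (38.7 to 78.1%) and 40.5% of 420 other genes. In each class the interval of the hosts includes the share of the other genes. Whether gene length or the number of TSSs sets the difference was not tested.

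**Figure D3:**
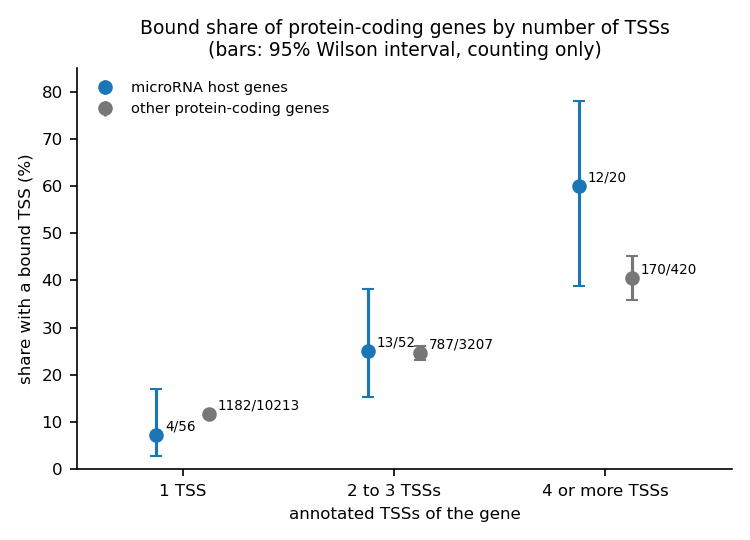
Share of protein-coding genes with a bound TSS (%, bars are 95% Wilson intervals for counting only) among microRNA hosts and other coding genes, by number of annotated TSSs. Host shares run 7.14%, 25% and 60.0% over the 3 classes, and those of other genes 11.6%, 24.5% and 40.5%.

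Binding through a host was found for precursors in coding genes and in non-coding RNAs. Of 36 entries in an exon of a coding gene on their strand, 10 were bound through the host and 1 at its own end. Of 100 in introns of coding genes, 19 and 2 were. Of 43 in an exon of a non-coding RNA, 4 and 2 were, and of 3 in an intron of one, none. Among 27 entries that lie only antisense in a gene, 1 was bound, at its own end. None of 51 intergenic entries was bound (interval 0 to 7%, and a count of 3 would be 5.88%). Of 34 entries whose ends lie within 10 bp of both ends of an annotated intron, the layout of a mirtron, none had a peak at its own end. Through the host 5 of them were bound (14.7%, 6.45 to 30.1%), against 13.2% of all genes at any TSS. They were mir-1007, mir-1009, mir-2500, mir-2535b and mir-4914. Both mir-1007 and mir-2535b rest on the same Abca3 peak, which was called in neither replicate.

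**Figure D4:**
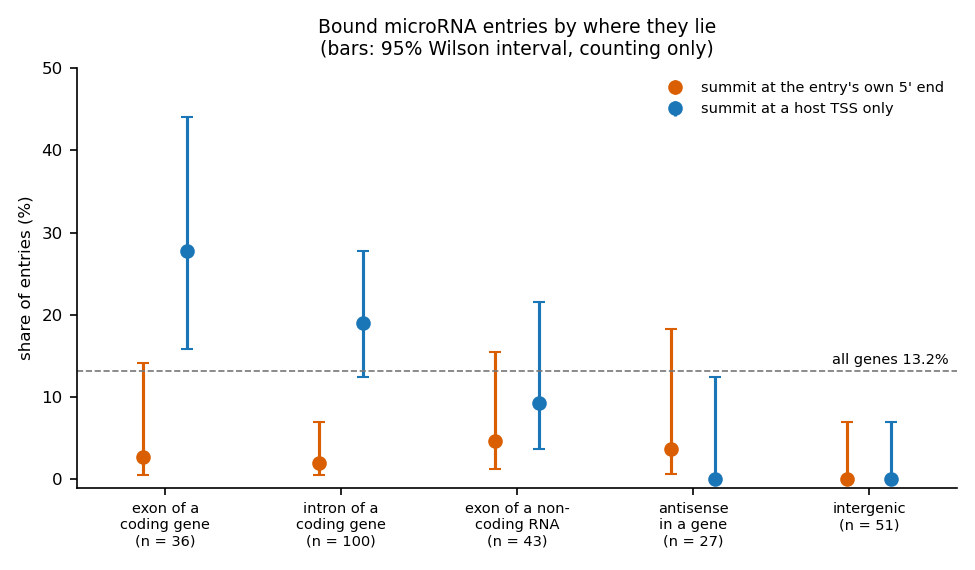
Share of precursor entries bound (%, bars are 95% Wilson intervals for counting only) at their own 5' end and at a host TSS only, by where the entry lies. The dashed line is the 13.2% of all genes with a summit at any TSS. At their own 5' end 11.6% of all genes were bound. Coding hosts have a median of 2 TSSs. Other coding genes with 1, with 2 to 3 and with 4 or more TSSs were bound at 11.6%, 24.5% and 40.5%. The shares through a host are 27.8% in coding exons, 19.0% in coding introns and 9.30% in exons of non-coding RNAs; antisense and intergenic entries have no same-strand host, and the 3 entries in introns of non-coding RNAs are not drawn.

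Distances show the same layout without a limit. The nearest main-list summit was at a median of 10428 bp from the entries' 5' ends, close to the 10636 bp of other genes' 5' ends, but 14 of 260 entries (5.38%) had one within 1000 bp, against 14.8% of other genes. From the nearest host TSS the median was 6618 bp over the 182 hosted entries, against 10276 bp from the nearest TSS of other genes. Entries in exons of non-coding RNAs were the closest class at short range. Of these, 12 of 43 (27.9%) had a summit within 2000 bp, against 10.8% of all entries and 19.8% of other genes' 5' ends. For 11 of the 12 it was upstream of the hairpin. The 3 precursors of lncRNA:CR45911 have the same nearest summit, so the 12 are not separate observations. Besides the bound mir-8, mir-275, mir-279 and mir-282, these upstream summits stood before mir-9a (1951 bp, signal 139), mir-277 (1871 bp, 83.3), mir-375 (731 bp, 123), mir-1000 (1710 bp, 108) and the 3 precursors of lncRNA:CR45911. The remaining one was bantam, with its summit downstream.

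**Figure D5:**
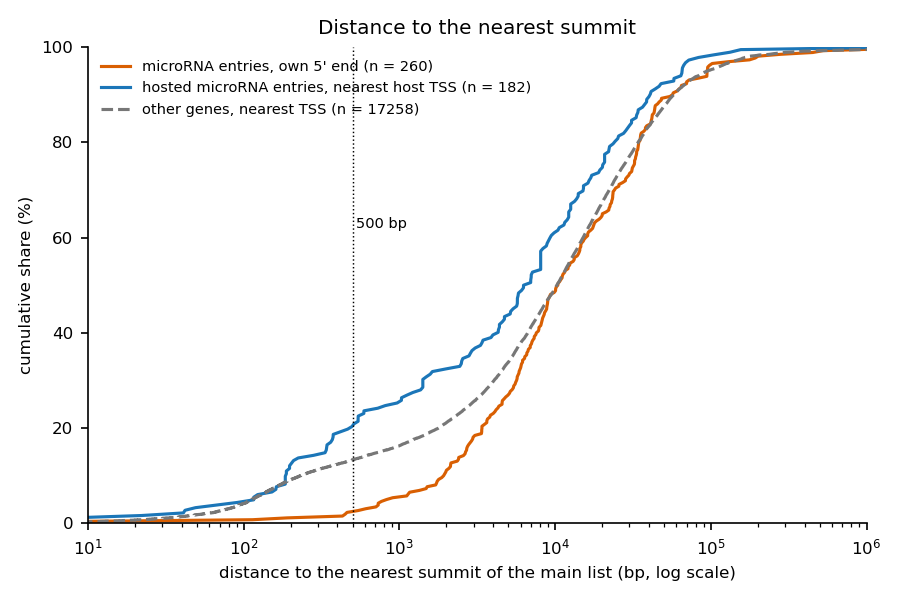
Cumulative share (%) of the 260 precursor 5' ends, of the nearest host TSS of the 182 hosted precursors, and of the nearest TSS of other genes, against the distance to the nearest main-list summit (bp, log scale). The other genes are the 17258 of 17371 that have a distance to a main-list summit. The dotted line marks 500 bp. At that distance the curves stand at 2.31%, 20.3% and 13.3%.

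The unbound precursors nearest to a summit were mir-305 (608 bp, 140) and mir-2496 (731 bp, 57.8), then mir-375, mir-4981 (826 bp, 220), mir-2c, mir-4967 in Pka-R2 (1163 bp, 89.8), mir-13a, mir-13b-1, mir-955 (1507 bp, 81.4) and mir-1000. The summit nearest to mir-305, a regulator of gut stem cells, is the one at mir-275, its cluster partner, which lies between the summit and mir-305.

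Many well-studied precursors had neither a peak at their own end nor a bound host. The let-7 complex, an ecdysone-linked timing cluster in lncRNA:let7C, had its nearest summit 5580 bp downstream of mir-let7, 6180 bp downstream of mir-100 and 5299 bp downstream of mir-125. The muscle microRNA mir-1 was 69969 bp from a summit and the neuronal mir-124 was 22105 bp away. For the mir-309 cluster, which clears maternal messages in the early embryo, the summit was 8150 bp upstream of mir-309 itself. Other distances were 12127 bp for mir-7 in HnRNP-K, 8952 bp for mir-184, 2577 bp for mir-276a, 2785 bp for mir-34, 22195 bp for mir-278 and 34354 bp for mir-310. The hosts E2f1 (mir-11 and mir-998), Gmap (mir-12, mir-283 and mir-304), SKIP (mir-1010), meru (mir-263b) and grp, the fly Chk1 gene that contains mir-9b, mir-9c, mir-79 and mir-306, were unbound. At the bithorax complex, mir-iab-4 and mir-iab-8, cut from opposite strands of one site, were 8825 and 8892 bp from the nearest summit.

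Outside the main list, 5 more precursors were called in another list. In replicate 1, mir-4977 was called through Eaf with a signal value of 42.8, and mir-281-1 and mir-281-2 through the antisense RNA CR46194 with 44.1. In replicate 2, mir-33 was called through SREBP with 72, its summit 494 bp from the TSS. There mir-14, which limits cell death, had a peak of 47.5 at its own end, and in the conservative list its host lncRNA:CR43651 had 49.5. The conservative list called 39 entries, of which 38 were also bound in the main list; the exception was mir-14.

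Weaker sites were common at precursors and other genes alike. In the ranked list of the pooled data, which applies no threshold, 145 of 260 entries (55.8%) had a summit within 500 bp of their own 5' end, against 64.6% of other genes, while 50.3% of all chromosome bases lay that close to such a summit. The best signal there had a median of 23.1 at entries and 26.5 at other genes. Of 221 entries that were not bound, 120 (54.3%) had such a site and none was above 57.9 (mir-966), below the main list's median of 89.1.

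In the 10 hosts with the highest peaks inside them, that peak lay from 114 to 37679 bp from the hairpin. Nearest was the Tlk peak of 3732 at mir-4962, then Tis11, with a peak of 312 at 1401 bp from mir-9377, CG5953, with 224 at 3222 bp from mir-4943, MRP, with 338 at 4388 bp from mir-9382, and spi, with 364 at 5508 bp from the nearest of its hairpins. This MRP peak, of rank 280, is not the one at the bound MRP TSS, of rank 281, which also had 338. The highest of the whole list, 4550, lay in bun, which encodes a homolog of the TSC-22 factors, 37679 bp from mir-967, while the bound bun TSS had 134 in the main list, 70.6 in replicate 1 and 64.7 in replicate 2. Appl, which encodes the fly amyloid precursor protein homolog, had a peak of 362 that lay 23227 bp from mir-4960, and no bound TSS. In lncRNA:CR46004 a peak of 274 lay 11487 bp from mir-276b, in foraging one of 448 lay 18750 bp from mir-4972, and in Btk one of 387 lay 19162 bp from mir-2b-1.

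Fixed motifs were counted around the 47 summits and around all 3810, and most were found at 2 or fewer of the 47, too few to compare the shares. Within 50 bp of the summit on either strand, TATAAA was found at 11 (23.4%), against 19.8% of all summits, and AGCAGC at 5 (10.6%), against 7.09%. GCTTAA was at 2 (4.26%), against 7.56%, and GAGAGAG at 2 (4.26%), against 1.26%. CACGTG was at 1 (2.13%), against 1.02%, TATCGATA at 1 (2.13%), against 1.44%, and ATCGATA, which TATCGATA contains, at 1 (2.13%), against 3.23%; CAGGTAG was at none, against 0.63%. The median GC content of the windows was 32.7%, against 34.7% for all summits. A match is a description of the letters and not a binding site.

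Genes of the microRNA pathway were looked at from a list of 50 symbols, of which 43 were found in the annotation. Of these, 13 had a bound TSS (30.2%, 18.6 to 45.1%), against the 13.2% of all genes and 15.5% of protein-coding ones. In replicate 1 on its own 8 were bound (18.6%, 9.74 to 32.6%), against 8.93% of all genes. In replicate 2 there were 10 (23.3%, 13.2 to 37.7%), against 10.4% of all genes. The listed genes have 1 to 6 TSSs. Among coding genes that host no precursor, 11.6% were bound with 1 TSS, 24.5% with 2 to 3 and 40.5% with 4 or more. The shares for 2 to 3 and for 4 or more lie inside the interval, and the share for 1 TSS lies below it. The list was chosen with earlier results of these data known, and the part of TSS number in its share was not tested. The core nuclear and cytoplasmic processing genes drosha, pasha, Dcr-1 and loqs were not bound. AGO1, the Argonaute that carries most microRNAs, had 63.4 in the main list and 40.3 in replicate 1 and was not called in replicate 2, and its silencing partner gw was called in replicate 2 alone. Of the nuclear cap-binding and export genes, Cbp20 had 119 in the main list, 48.6 in replicate 1 and 73.8 in replicate 2, Ranbp21, the exportin-5 gene, had 86 and was called in replicate 2, and Cbp80 and Ars2 were unbound.

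In the small interfering RNA branch r2d2, the partner of Dicer-2, had 178, 91.7 and 87.1 in the main, replicate 1 and replicate 2 lists, and Dcr-2, AGO2 and Hen1 were unbound. Of the chaperones that load Argonautes, Hsp83 had 143, 63.6 and 77, and Hsc70-4 had 94.3 and was called in replicate 2. Fkbp59 and p23 were unbound. Among effectors of repression, tral had 195, 111 and 82.8, and bel had 85.3, 40.3 and 44.1. The deadenylase gene Pop2 had 84.3 and was called in replicate 1, and smg had 87 and was called in neither replicate. Fmr1, me31B, Ge-1, Patr-1, pcm, Not1, Not3, twin and Rga were unbound, and pAbp was called in replicate 2 alone. Also unbound were the listed genes Tailor, trsn, vig, Nup154, Ran, Rm62 and Mettl3. The nuclear import gene msk had 103 and was called in replicate 2. Of the TRIM-NHL genes, wech had 66 and was called in replicate 1, brat had 38.2 and was called in neither, and mei-P26 was unbound. The peaks of AGO1, wech and brat are missing from the conservative list. Many of these starts are shared: at AGO1, Ranbp21, Cbp20, r2d2, Hsc70-4, tral, Pop2, brat and msk the summit was also within 500 bp of another gene's TSS, so the peak cannot be assigned to one of the pair.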

How the data were processed

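Anti-GFP ChIP-seq peak lists of 2 biological replicates in 1 group were used. Per the file headers and labels, the deposited lists are in dm6 coordinates, and a control alignment that was not analysed here served in making them. Aligner, peak caller and versions, not given in the sources used here, could not be checked. The deposited signal value is a score per peak by the authors, which was used to describe and rank peaks within a list. The deposited IDR score (irreproducible discovery rate) is 830 or more in each thresholded list, those of single replicates included. Read depth is unknown.

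Genes and TSSs came from Ensembl release 115 and mature sequences from RefSeq. Coordinates are 1-based. A call needed a summit within 500 bp; peaks of 2 lists were matched by an overlap of 1 bp and summits within 150 bp. Transposable elements and mature entries were left out of the genes. Clusters hold entries of one strand within 10000 bp. The text names every bound entry with its host, the 10 unbound entries nearest to a summit, the strongest peaks inside hosts and a list of well-studied microRNAs. The members and lists were chosen with earlier results of these data known. Of the 50 pathway symbols, nbr, TSN, Translin, Dcp1, Dcp2, CCR4 and Ime4 were not matched. Peaks were assigned with Python 3.11.15, numpy 2.4.6 and scipy 1.17.1, and figures drawn with matplotlib 3.10.9. The assignment was tested on simulated summits planted on the real annotation. No test over samples was possible with 1 group.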

Additional observations from a re-analysis of the deposited data

How the results depend on the processing

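No paired analysis was possible because the study has 1 group. Of 61 recomputed counts, 48 lay within 1.5 times the reported one. Leaving out a replicate gave 4 to 5 entries bound at their own end, 30 bound through a host alone, 34 to 35 bound in either way, 26 to 29 hosts, 8 to 10 pathway genes and 1589 to 1850 genes. The other 13 moved further, among them the 8 pathway genes of replicate 1 alone, against 13. With peaks above the median signal, 1388 genes and 6 pathway genes were bound. The ranked list with no threshold gave 145 entries at their own end, 194 in either way, 130 hosts, 11902 genes and 35 pathway genes. A limit of 250 bp left 3 entries at their own end and 21 hosts, and 1000 bp gave 14 entries at their own end. Using the host's own 5' end alone left 22 hosts, and counting mature entries as well gave 18 at their own end. Entries bound in either way ran from 26 (250 bp, 10%, against 10.2% of all genes) to 51 (1000 bp, 19.6%, against 16.1%) over the other limits of distance. Signal values are lower in a replicate's list than in the pooled one. Read depth is unknown, so a peak missing from a replicate's list was not detectable there past the authors' threshold, and its absence is not shown.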
